A study of Mus musculus with 24 samples.

Results

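Txnip and 6 genes of hepatic glucose and fructose handling were followed in mouse liver after an overdose of acetaminophen (APAP), to ask whether the Txnip difference between genotypes at 24 and 48 h was shared by other carbohydrate-responsive genes. The 7 genes, Txnip, Arrdc4, Mlxipl, Pklr, Khk, Gckr and Slc2a2, were chosen by symbol, and all 7 were found among the 24411 genes counted in each of 24 whole-liver RNA-seq libraries. In control livers Txnip was 4.81-fold higher than in knockout livers at 24 h and 4.83-fold higher at 48 h, while the other 6 genes differed between the same pools by log2 values of -0.20 to 0.64 at 24 h and of -0.72 to 1.36 at 48 h. Mlxipl was higher in the knockout pool at all 5 times after APAP, and so were Pklr and Gckr. The same held for 8.37% of all genes, and none of Mlxipl, Pklr and Gckr passed the thresholds for a genotype difference by edgeR.

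The LKO mice were floxed for E2f7 and E2f8 and carried Alb-Cre, whose albumin promoter is active in hepatocytes and their precursors from before birth, and their controls, labelled WT, were floxed littermates without Cre. Both were on a mixed, predominantly FVB background with the R26R mTmG reporter and were sampled at 0 h (4 single mice per genotype, fasted and not given APAP) and at 12, 24, 48, 72 and 96 h after 300 mg/kg APAP, with 1 library per genotype and time that pooled the RNA of 3 mice. The HKO mice carried the same floxed alleles and received AAV8-TBG-Cre, which expresses Cre from a hepatocyte promoter, at 2 months of age, and their controls were floxed mice given AAV8-TBG-Null. The HKO cohort was sampled only at 0 h, with 3 single mice per group. All mice were males of 2.5 months that had been fasted overnight for about 16 h. Levels are given as CPM, read counts scaled to library size within each cohort, and a pool of 3 mice carries no measure of the spread between its mice.

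Reads on genes ranged from 12665686 to 19499897 per library, so 3 reads corresponded to 0.154 to 0.237 CPM. The deletion could not be checked from these counts, since reads over the whole E2f8 gene were 189 to 320 per control mouse and 320 to 592 per LKO mouse at 0 h, 235 to 382 per null mouse and 464 to 1310 per HKO mouse, and counts over a whole gene also include the exons outside a deletion. E2f7 had at most 66 reads in any library. Hepatocyte markers (7 genes, among them Alb and Cps1) summed to 73767 to 121155 CPM in control mice, 50403 to 95466 in LKO mice, 84474 to 86095 in null mice and 70437 to 98720 in HKO mice at 0 h. In whole liver, fewer cells of a type and less RNA per cell cannot be told apart.

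The protein that Txnip encodes, an alpha-arrestin, binds and inhibits thioredoxin and lowers the uptake of glucose into cells. Its transcription rises with glucose through ChREBP (encoded by Mlxipl), a transcription factor that pairs with MLX and binds carbohydrate response elements in the promoters of glycolytic and lipogenic genes. In the liver, ChREBP is best known for raising liver pyruvate kinase (Pklr) and fatty acid synthesis after a carbohydrate meal. Arrdc4 encodes the arrestin most closely related to TXNIP and is another gene of this response, Khk encodes fructokinase, Gckr a regulatory protein of hepatic glucose use, and Slc2a2 the glucose transporter GLUT2.

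The 250 bases before the RefSeq transcript starts of 3 of these genes are shown because they hold the letters of the response element or the most CCAAT boxes, and are given 5′ to 3′ on the strand of the gene (GRCm38.p6). Capitals mark CACGTG, or a pair of 6-base sites that are 5 bases apart, each being CACGNG or CNCGTG. The windows are chr3:96557707-96557956 on the plus strand for Txnip, chr7:68749239-68749488 on the minus strand for Arrdc4 and chr3:89136373-89136622 on the plus strand for the start of Pklr that is used in liver.
Txnip: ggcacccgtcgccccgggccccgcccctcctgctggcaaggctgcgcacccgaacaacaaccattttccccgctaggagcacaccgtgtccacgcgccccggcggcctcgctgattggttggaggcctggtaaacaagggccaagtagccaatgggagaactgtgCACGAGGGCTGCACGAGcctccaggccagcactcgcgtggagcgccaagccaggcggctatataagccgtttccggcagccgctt
Arrdc4: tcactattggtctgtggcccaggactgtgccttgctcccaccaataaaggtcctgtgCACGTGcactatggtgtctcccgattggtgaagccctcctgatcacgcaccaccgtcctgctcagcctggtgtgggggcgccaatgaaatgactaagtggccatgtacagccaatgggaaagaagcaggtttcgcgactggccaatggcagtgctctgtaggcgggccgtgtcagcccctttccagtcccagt
Pklr: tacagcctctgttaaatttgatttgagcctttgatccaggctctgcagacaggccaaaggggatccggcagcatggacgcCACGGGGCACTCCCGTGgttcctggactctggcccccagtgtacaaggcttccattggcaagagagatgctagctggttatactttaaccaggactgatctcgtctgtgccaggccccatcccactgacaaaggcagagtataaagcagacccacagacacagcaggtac
The pair of sites was present in 1 window of Txnip, with its first base at -85 from the start, and in 1 of Pklr, at -170, and in 24 of 32851 windows of the same length before RefSeq starts (0.0731%). CACGTG, which can also be a site of the pair, was present in the windows of Arrdc4 (at -193), Khk (at -71) and the upstream start of Mlxipl (at -98), and in 6.02% of all windows. CCAAT, searched on both strands, was present in 33.8% of all windows and was found 6 times in that of Arrdc4 and 2 times in that of Txnip. Gckr and Slc2a2 held neither CACGTG nor the pair of sites in these windows. These matches describe letters and are not evidence of binding.

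The genes lie on chromosomes 3, 5 and 7 (GENCODE vM21, GRCm38). Txnip (chr3:96557957-96561883, plus strand) lies wholly inside Gm15441 (chr3:96555765-96566801, minus strand), an antisense gene, and 606 of its 3123 exonic bases (19.4%) are also exon of Gm15441. The counts used here disregard strand and leave out reads that fall on both genes, so Txnip values come from reads on Txnip alone. The reads left out made up 16.3% to 35.2% of the reads on Txnip or on both genes in control libraries, 19.2% to 35.1% in LKO, 33.8% to 37.8% in null and 35.9% to 37.8% in HKO libraries. Gm15441 alone had 0 to 52 reads per library in the LKO cohort and 59 to 184 in the HKO cohort. For the other 6 genes, all reads on the gene, shared ones included, came to at most 1.03 times the count used.

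**Figure D1:**
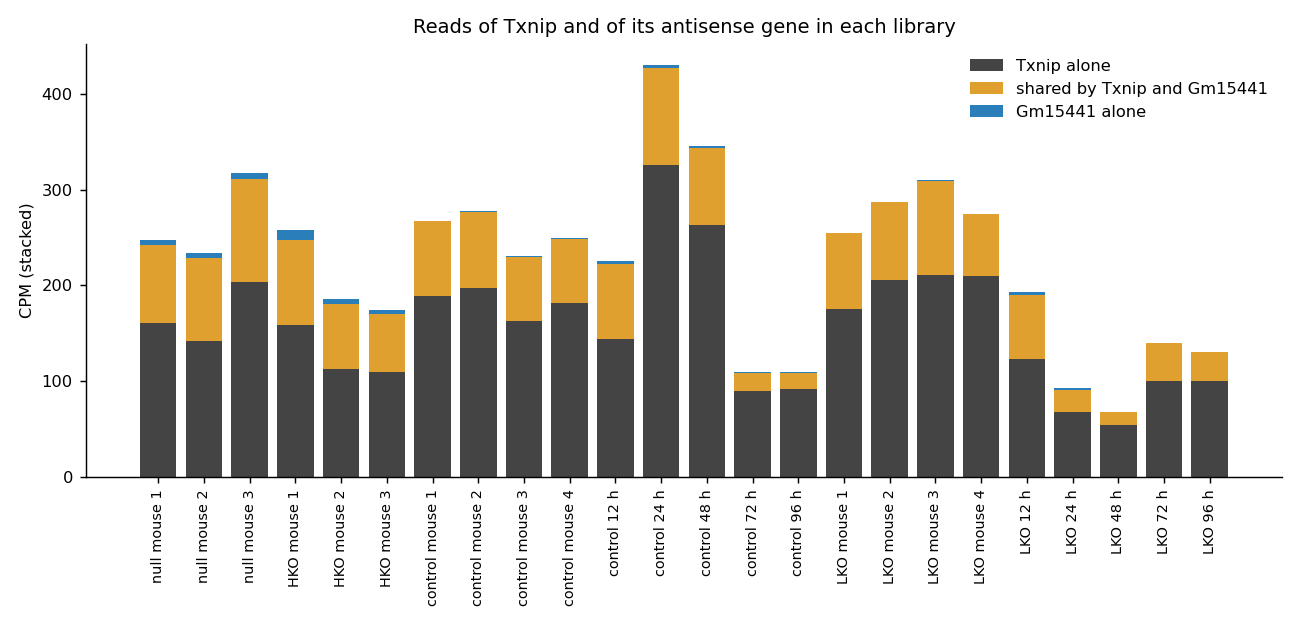
CPM (y axis) in each of the 24 libraries (x axis), stacked as reads on Txnip alone, reads shared by Txnip and Gm15441, and reads on Gm15441 alone. The shared reads came to 102 CPM in the control pool and 23.1 CPM in the LKO pool at 24 h, and their share of the reads on Txnip or on both genes varied from 16.3% to 37.8% over the libraries.

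At 0 h, no member differed between LKO and control mice by edgeR's quasi-likelihood test. Txnip was at 188, 197, 162 and 182 CPM in the 4 control mice and at 175, 206, 210 and 210 CPM in the 4 LKO mice. The groups overlapped, with 3 of the 4 LKO mice above all control mice, and the log2 fold change was 0.14 (SE 0.12, adjusted p = 0.999). Pklr was at 207, 118, 85.1 and 210 CPM in control mice and at 152, 269.9, 185 and 205 CPM in LKO mice, a log2 fold change of 0.39 (SE 0.29, adjusted p = 0.999). Mlxipl averaged 431 CPM ± 77.0 (SD, n = 4) in control and 425 ± 35.6 (SD, n = 4) in LKO mice. The other 4 members had log2 fold changes of -0.01 (Arrdc4), 0.16 (Khk), 0.12 (Gckr) and 0.17 (Slc2a2), with SE of 0.18 to 0.23. In this comparison 0 of 12426 genes were called (0%) at an adjusted p under 0.05 and a fold of at least 1.5, 352 had an unadjusted p under 0.05, and DESeq2 called 3. For none of the 7 members did the LKO and control mice fall into ranges that did not overlap, against 1.83% of all genes tested.

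Per kilobase of exon, the order of the members in control mice at 0 h was Khk (268 ± 74.1 CPM per kb, SD, n = 4), Mlxipl (77.8 ± 13.9), Gckr (60.6 ± 14.7), Txnip (58.4 ± 4.70), Slc2a2 (49.2 ± 13.6), Pklr (47.9 ± 19.5) and Arrdc4 (4.87 ± 1.10). Khk, at the top, and Arrdc4, at the bottom, stood apart from their neighbours by more than these SDs. Every neighbouring pair from Mlxipl to Pklr lay within its SDs. The place of Txnip depends on the counting, since 27.0% to 29.4% of its reads in these mice were shared with Gm15441 and left out while its length kept all 3123 bases, and with the shared reads added it was at 81.9 ± 6.64 CPM per kb (SD, n = 4), above Mlxipl. Arrdc4 was thus at a much lower level than its relative Txnip in the fasted liver, and its values carry more counting error.

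In the HKO cohort, where the deletion was made in the adult, Txnip and Slc2a2 had the largest differences of the 7, and no member was called. Txnip was at 161, 142 and 203 CPM in null mice and at 159, 112 and 109 CPM in HKO mice. The groups overlapped through the first HKO mouse, and the log2 fold change was -0.41 (SE 0.17, unadjusted p = 0.0405, adjusted p = 0.358 by edgeR). Slc2a2 was at 300.4, 371 and 342 CPM in null mice and at 251, 254 and 259 CPM in HKO mice, so that all HKO mice lay below all null mice (log2 fold change -0.41, SE 0.10, adjusted p = 0.118 by edgeR and 0.0194 by DESeq2, under the fold of 1.5 with both). Mlxipl was at 259.8, 272 and 291 CPM in null and 320.3, 318 and 311 CPM in HKO mice, all HKO mice above all null mice (0.21, SE 0.09, adjusted p = 0.379 by edgeR). Khk was lower in all HKO mice than in any null mouse (-0.28, SE 0.14), and Gckr (0.24, SE 0.11), Pklr (-0.01, SE 0.16) and Arrdc4 (0.02, SE 0.22) overlapped. Thus 3 of 7 members did not overlap between the groups, while 18% of all genes tested did not overlap, and 0 of 7 members were among the 119 of 12397 genes called (0.96%).

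Among the ChREBP targets outside the 7 genes, 2 were called lower in HKO mice and 0 higher. Thrsp, which promotes lipogenesis, was at 71.6, 91.2 and 109 CPM in null mice and at 15.7, 12.1 and 11.3 CPM in HKO mice (log2 fold change -2.80, adjusted p = 3.74e-04 by edgeR), and Rgs16, a regulator of G-protein signalling, had a log2 fold change of -1.43 (adjusted p = 0.00252 by edgeR, and 0.559 when all 24 libraries were fitted together). Thrsp was the 1 gene called among 10 lipogenic targets tested, whose median log2 fold change was -0.09, against 0.01 over all genes. Rgs16 was the 1 called among 4 other targets, whose median was -0.01. Fgf21, of the same 4, was higher in HKO mice (0.79, adjusted p = 0.164 by edgeR). Clock genes moved in the same comparison. Of 11 clock genes tested 1 was called higher and 5 lower, with Arntl at 2.24, Dbp at -2.70 and Per3 at -2.40 on the log2 scale. The part of these clock gene differences in the Txnip, Thrsp and Rgs16 values was not tested. The LKO and HKO comparisons differ in the cohort, the virus and the age at deletion, and no test of the difference between them was made for these genes.

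**Figure D2:**
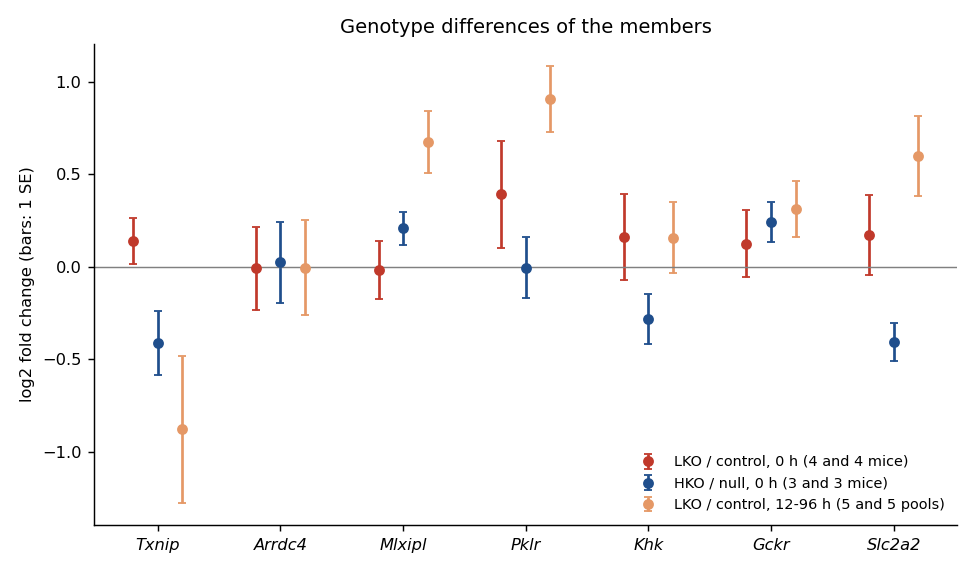
Log2 fold change (y axis, bars 1 SE) of each member (x axis) for LKO against control mice at 0 h, HKO against null mice at 0 h, and LKO against control pools over 12-96 h. Over 12-96 h Txnip lies at -0.88, while Mlxipl, Pklr and Slc2a2 lie at 0.60 to 0.91, and none of the 6 members other than Txnip, for which no test is given there, was called by edgeR.

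After APAP, Txnip took opposite courses in the 2 genotypes at 24 and 48 h. In control pools it was at 144, 326, 263, 89.8 and 91.2 CPM at 12, 24, 48, 72 and 96 h, and in LKO pools at 123, 67.6, 54.5, 100.3 and 99.6 CPM. Relative to the 0 h mean of the same genotype, control pools were higher by 0.84 at 24 h and by 0.53 at 48 h on the log2 scale, above all 4 control mice at 0 h, and at -0.33, -1.02 and -0.99 at 12, 72 and 96 h. LKO pools were below all 4 LKO mice at every time after APAP, with log2 changes from -0.70 in the 12 h pool to -1.87 in the 48 h pool. No test over time or of the genotype difference after 0 h is given for Txnip, because the gene was chosen with its 24 and 48 h values known.

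**Figure D3:**
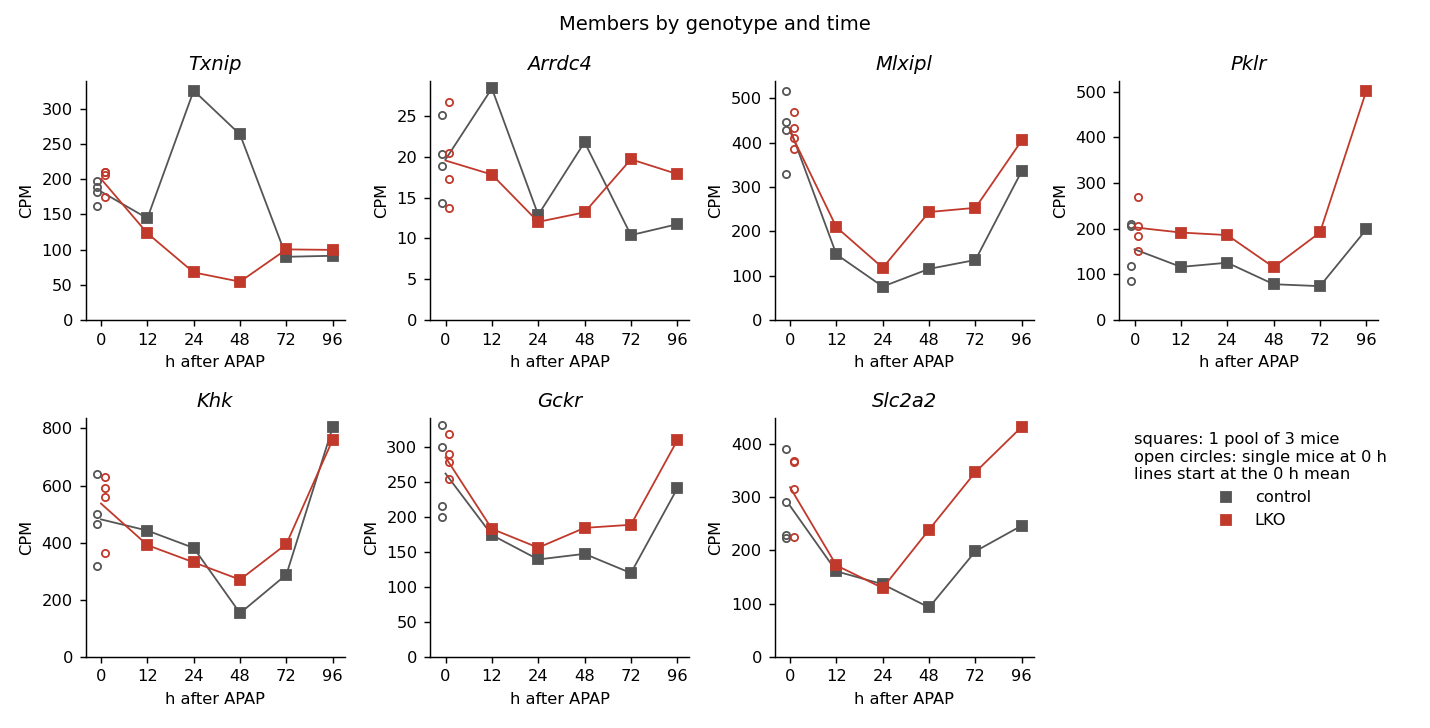
CPM (y axis, from 0) of each of the 7 members against hours after APAP (x axis), with open circles for single mice at 0 h and squares for pools of 3 mice, in control and LKO livers. Txnip is the member whose control pools at 24 and 48 h rise above the 0 h mice while the LKO pools fall below them.

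For Txnip the log2 ratio of LKO to control was 0.14 in the mice at 0 h and, in time order from 12 to 96 h, -0.23, -2.27, -2.27, 0.16 and 0.13 in the pools. The SD between mice of a genotype at 0 h was 0.12 on this scale, and pools of 3 mice from injured livers may vary differently, so no test is given for a single time. The difference was thus found at 24 and 48 h, and at 72 and 96 h the pools of both genotypes lay between 89.8 and 100.3 CPM. With the reads shared with Gm15441 added, Txnip was at 427 and 90.7 CPM at 24 h and at 343 and 67.4 CPM at 48 h in control and LKO pools. Gm15441 alone had 3.16 and 1.66 CPM at 24 h and 1.84 and 0.34 CPM at 48 h, and the part of antisense reads in the Txnip difference was not tested. Of 13328 genes, 0.48% had a ratio at or below that of Txnip at 24 h and 1.58% at 48 h. Txnip was chosen with these ratios known, so its place among all genes, here and in the next sentence, is description and no test. The LKO pool was at least 4-fold lower at both times for 30 genes, of which 1, Mup7 (a major urinary protein, named after its values were seen), had a higher mean level over the 18 libraries (567 CPM) than Txnip (161 CPM).

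Arrdc4, the closest relative, differed little between the pools at 24 h and was lower in the LKO pool at 48 h, by less than Txnip. Khk (-0.20) and Slc2a2 (-0.08) also had negative log2 ratios at 24 h. It was at 28.4, 12.9, 21.8, 10.4 and 11.7 CPM in control pools and at 17.8, 12.0, 13.2, 19.7 and 17.9 CPM in LKO pools at 12, 24, 48, 72 and 96 h. Its log2 ratios were -0.67, -0.10, -0.72, 0.91 and 0.60, next to an SD between mice at 0 h of 0.37. Fitted over 24 and 48 h together, with the 0 h mice giving the spread, Arrdc4 had a log2 fold change of -0.41 (SE 0.32, adjusted p = 0.619 by edgeR). Of the other alpha-arrestins, Arrdc1, Arrdc2 and Arrdc3 had log2 ratios of -0.22, -0.39 and -0.55 at 24 h and of 0.24, 0.38 and 0.72 at 48 h, and Arrdc5 had too few reads to be kept. Thioredoxin (Txn1), which TXNIP binds, had ratios of -0.20 and 0.15, and none of the 4 thioredoxin system genes was called in a genotype comparison. In the shared time course Txn1 and Txnrd1, a thioredoxin reductase, were called (largest log2 changes of 0.82 at 24 h and 2.29 at 12 h, adjusted p = 0.00139 and 5.45e-07 by edgeR).

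Mlxipl, which encodes ChREBP itself, fell after APAP and was at a higher level in LKO than in control pools. It was at 148, 75.6, 115, 135 and 336 CPM in control pools and at 209, 118, 244, 253 and 405 CPM in LKO pools, with its lowest level at 24 h in both. The log2 ratios of LKO to control were 0.50, 0.64, 1.08, 0.90 and 0.27, all in the direction opposite to Txnip at 24 and 48 h. Over 24 and 48 h the log2 fold change was 0.86 (SE 0.23, adjusted p = 0.123 by edgeR, 0.0156 by DESeq2), and over 12-96 h it was 0.67 (SE 0.17, adjusted p = 0.0946 by edgeR, 0.00673 by DESeq2). Its change over time was called, with a largest log2 change of -2.19 at 24 h (adjusted p = 3.12e-05 by edgeR). The partners Mlx and Mlxip had log2 ratios of 0.47 and -0.40 at 24 h and of 0.18 and -0.16 at 48 h.

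Pklr, the textbook ChREBP target, was higher in LKO pools at all 5 times. It was at 116, 126, 78.6, 74.3 and 199 CPM in control pools and at 192, 186, 116, 192 and 502 CPM in LKO pools, and the LKO pool at 96 h was above all 4 LKO mice at 0 h. The log2 ratios were 0.72, 0.57, 0.56, 1.37 and 1.34, and over 12-96 h the log2 fold change was 0.91 (SE 0.18, adjusted p = 0.0579 by edgeR, 2.32e-04 by DESeq2). The 0 h difference of 0.39 had the same sign, and the change of the genotype difference from 0 h was 0.52 (SE 0.36, adjusted p = 0.648 by edgeR). Higher values in LKO at all 5 times were found in 8.37% of all genes, and in 3 of the 7 members, Mlxipl, Pklr and Gckr.

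Slc2a2 separated between the genotypes from 48 h on. It was at 161, 136, 92.7, 198 and 246 CPM in control pools and at 172, 129, 239, 347 and 432 CPM in LKO pools. The log2 ratios were 0.10, -0.08, 1.36, 0.81 and 0.81, with a fitted value over 12-96 h of 0.60 (SE 0.22, adjusted p = 0.197 by edgeR). Khk was at 153 CPM in the control pool and 270.3 CPM in the LKO pool at 48 h (log2 ratio 0.82), and its ratios at the other times were -0.20 to 0.46. Gckr ranged from 120 to 241 CPM in control pools and from 156 to 310.0 CPM in LKO pools, with log2 ratios of 0.07 to 0.66. Khk (0.16, SE 0.19) and Gckr (0.31, SE 0.15) had smaller fitted values over 12-96 h, with adjusted p = 0.706 and 0.310 by edgeR.

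**Figure D4:**
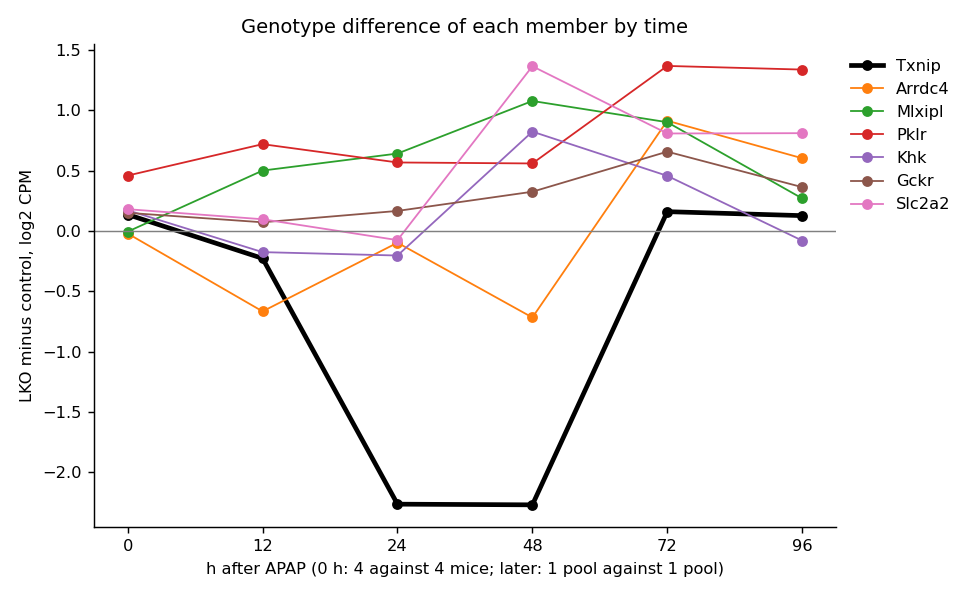
LKO minus control in log2 CPM (y axis) for each member against hours after APAP (x axis), where 0 h compares 4 with 4 mice and later points 1 pool with 1 pool. Txnip drops to -2.27 at 24 and 48 h while the other 6 members lie between -0.72 and 1.36, and all 7 are above 0 at 72 h.

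Over 12-96 h, with the time point in the model, 0 of the 6 members other than Txnip were called by edgeR, against 74 of 12782 genes (0.579%). Over 24 and 48 h, 0 of these 6 were called by edgeR, against 56 of 13476 genes (0.416%). DESeq2 called Mlxipl and Pklr over 12-96 h (595 genes in all) and Mlxipl over 24 and 48 h (374 genes in all). Txnip over 12-96 h averaged a log2 fold change of -0.88, with the pools at 72 and 96 h on the other side of 0. The change of the genotype difference from 0 h to 12-96 h was 0.70 for Mlxipl (SE 0.22, unadjusted p = 0.00590, adjusted p = 0.417 by edgeR). In this interaction test 0 of 13328 genes were called by edgeR (0%), 1285 had an unadjusted p under 0.05, and DESeq2 called 36, none of them a member. In the time course shared by both genotypes, 5 of the 6 members other than Txnip were called, Mlxipl, Pklr, Khk, Gckr and Slc2a2, against 48.4% of 13328 genes. Besides Mlxipl, the largest log2 changes were -1.29 for Khk at 48 h, -0.89 for Gckr at 24 h and -1.16 for Slc2a2 at 24 h. Pklr moved both ways, to -0.90 at 48 h and 0.86 at 96 h, and it was not called without the LKO pool at 96 h (adjusted p = 0.120 by edgeR), whose log2 change was 1.34. Tested in control or LKO libraries alone, where each later time is 1 pool and the 4 mice at 0 h give all of the spread, Mlxipl was called and the other 5 were not (adjusted p = 0.0601 to 0.322 in control and 0.0582 to 0.534 in LKO by edgeR).

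In the 12, 24, 48, 72 and 96 h pools in turn, 1, 1, 3, 5 and 3 of the 7 members were at least 1.5-fold higher in LKO, next to 19%, 8.89%, 17.2%, 14.6% and 14.8% of all 13328 genes. At least 1.5-fold lower were 1, 1, 2, 0 and 0 members, next to 22.9%, 10.6%, 19%, 15.6% and 12.4% of all genes. The member lower at 24 h was Txnip, and those at 48 h were Txnip and Arrdc4. Because Txnip was chosen with these values known, its part in these counts and in the medians that follow is description only. The median log2 ratio of the 7 members was -0.08, 0.56 and 0.81 in the 24, 48 and 72 h pools, while that of all genes was within 0.02 of 0.

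The wider lists of ChREBP targets were divided in the same window. Of 11 lipogenic targets, such as Acly, Fasn and Scd1, 2, 3, 6, 8 and 9 were at least 1.5-fold higher in LKO in the 12, 24, 48, 72 and 96 h pools, and 3, 0, 0, 0 and 1 were lower. Their median log2 ratio was -0.18 in the 12 h pools and 0.08 to 1.48 in the later ones. Fasn (fatty acid synthase) had log2 ratios of 0.91, 0.57, 1.58, 1.54 and 1.83 and was called over 12-96 h (1.28, adjusted p = 0.0366 by edgeR, 0.0314 to 0.105 with 1 time point left out). It was the 1 lipogenic target called of 11, whose median was 0.63 against -0.01 over all genes. Of 4 other targets, 3 were at least 1.5-fold lower at 24 h and 2 at 48 h, with Klf10 (a transcriptional repressor induced by glucose) at -1.52 and -2.59 and Fgf21 (a hormone of the liver) at -0.63 and -3.18. Rgs16 was at -2.23 and 0.30, and Angptl8, listed as Gm6484, at -0.08 and 0.43. Klf10 over 24 and 48 h was at -2.05 (adjusted p = 0.0517 by edgeR, 3.80e-05 by DESeq2), so that it shared the sign of Txnip.

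Among 6 genes of hexose entry and glycolysis, G6pc, which releases free glucose, was higher at all 5 times (log2 ratios of 0.58 to 2.24). G6pc was the 1 of the 6 called over 12-96 h (1.32, adjusted p = 0.0450 by edgeR), and leaving out the 12, 24, 48 or 72 h pools took its adjusted p to 0.0973 to 0.139. Of 7 fasting-induced genes, 3 were at least 1.5-fold lower in the LKO pool at 24 h and 4 at 48 h, and 0 were higher. Pdk4, which blocks the entry of pyruvate into the mitochondrial oxidation of glucose, was at 258 and 194 CPM in control pools and at 46.2 and 5.83 CPM in LKO pools at 24 and 48 h. Pdk4 over both times had a log2 fold change of -3.71 (adjusted p = 0.0130 by edgeR, 0.186 without the 48 h pools), and Angptl4, an inhibitor of lipoprotein lipase, one of -1.16 (adjusted p = 0.0372 by edgeR, 0.0521 without the 24 h pools and 0.771 without the 48 h pools). These 2 were the fasting-induced genes called, and Pck1 and Cpt1a had ratios of 0.24 and 0.04 at 24 h and of 0.30 and -0.65 at 48 h. Of 11 clock genes, 0 were at least 1.5-fold higher or lower at 24 h, and 1 was higher and 1 lower at 48 h.

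**Figure D5:**
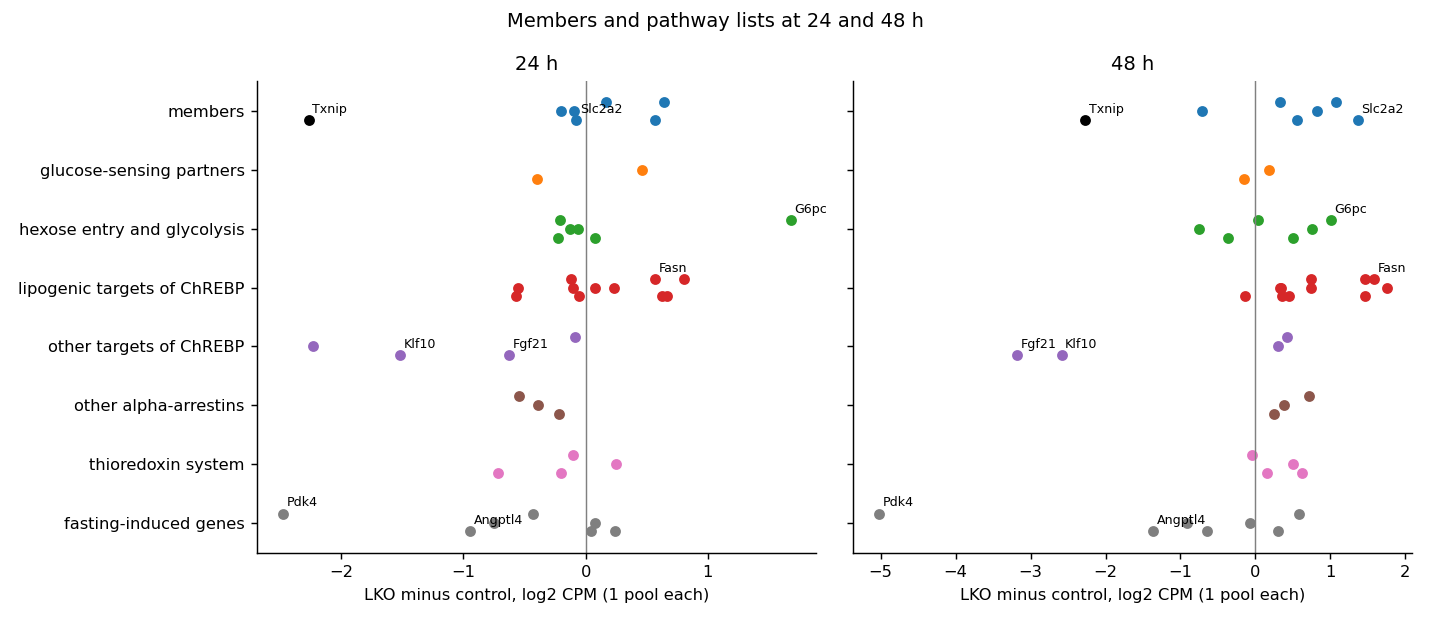
LKO minus control in log2 CPM (x axis, 1 pool each) for the members and the genes of 7 pathway lists (rows) at 24 h and 48 h, with chosen genes named. Txnip, Klf10 and Pdk4 lie at or below -1.52 at both times, while 6 of 11 lipogenic targets are at least 1.5-fold above 0 at 48 h.

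When all 18 LKO and control libraries were ranked together, the 5 genes whose log2 CPM followed Txnip most closely among 12099 genes were Egln1 (Pearson r = 0.856), a prolyl hydroxylase of the oxygen-sensing pathway, Slc25a47 (0.816), a mitochondrial carrier, Klf10 (0.778), Angptl4 (0.762) and Tle1 (0.723), a co-repressor. Arrdc4 ranked 410 (0.457), and the other 5 members had r of -0.10 to 0.21. For Pklr the 5 closest genes were Gstt3 (0.850), Dlat (0.813), Stard7 (0.811), Fasn (0.809) and Wwox (0.808), with Khk at rank 31 (0.746), Gckr at 42 (0.726), Slc2a2 at 122 (0.661) and Mlxipl at 747 (0.505). These values describe 18 libraries of 6 times and 2 genotypes, which share the course of the injury, and no p-value is given for them.

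Markers of cell types were summed and also read one by one, since a few abundant genes set each sum. Hepatocyte markers summed to 108840 CPM in the control and 87134 CPM in the LKO pool at 24 h and to 93041 and 100553 CPM at 48 h. Myeloid markers (7 genes, such as Cd68) summed to 87.7 and 88.1 CPM at 24 h and to 132 and 129 CPM at 48 h, stellate and fibroblast markers to 208 and 225 CPM and to 297 and 269.9 CPM, and endothelial markers to 139.5 and 138 CPM and to 169 and 159.7 CPM. Cholangiocyte markers summed to 56.1 and 50.8 CPM at 24 h and to 218 and 87.2 CPM at 48 h. Within these sums single markers differed by more. Cyp2e1, a cytochrome that oxidises APAP, was 2.07-fold higher in the LKO pool at 24 h and 4.92-fold higher at 48 h, and the other 6 hepatocyte markers had log2 ratios of -0.58 to 0.76 at these times. Of 5 stellate and fibroblast markers, 1 was at least 1.5-fold higher and 2 were lower in the LKO pool at 24 h (median log2 ratio 0.16), and 0 were higher and 1 lower at 48 h (median -0.15). Among them Acta2, a marker of activated stellate cells and smooth muscle, had log2 ratios of -3.95 and -1.76, beyond Txnip at 24 h, and was called over both times (-2.75, adjusted p = 0.0418 by edgeR, 0.0353 to 0.186 with 1 mouse or time left out). Of 7 myeloid markers, 4 were at least 1.5-fold higher and 1, Cd68 (-1.33), was lower in the LKO pool at 24 h, while at 48 h 1, Adgre1 (1.49), was higher and 3 were lower. Of 5 endothelial markers, 1 was at least 1.5-fold higher and 0 were lower at 24 h, and at 48 h 1, Clec4g (1.18), was higher and 2, Lyve1 (-2.14) and Pecam1 (-0.72), were lower. Of 5 cholangiocyte markers, 1 was at least 1.5-fold higher and 1 lower at 24 h, and 0 were higher and 4 lower at 48 h. In the 12 h pools, cholangiocyte markers summed to 175 CPM in control and 36.7 CPM in LKO, with 0 of 5 higher and 4 lower. Hepatocyte markers summed to 111706 and 72628 CPM there. At 72 h, where 5 members were at least 1.5-fold higher in the LKO pool, stellate and fibroblast markers were at 901 CPM in the control and 619.6 CPM in the LKO pool and hepatocyte markers at 137070 and 100542 CPM. At 96 h, myeloid markers were at 187 and 63.2 CPM. The part of these differences in cell types in the members' values was not tested.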

How the data were processed

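Whole-liver polyA RNA was sequenced in 24 libraries. Per the paper's methods, the authors used Trimmomatic 0.38 for trimming and STAR 2.6.1a for alignment to mm10, and the deposited values are its raw read counts per gene. The annotation version is not given in the sources used here. Of its 3 count columns, the unstranded one was analysed. Lines that name no gene (18.7% to 39.9% of reads per library) were left out. Groups came from the labels. Genes were kept with filterByExpr, scaled by TMM and tested with the quasi-likelihood F-test of edgeR 4.0.16 (limma 3.58.1, R 4.3.3), with Benjamini-Hochberg adjustment over all genes tested and 2-sided p-values. A call needed an adjusted p under 0.05 and a fold of at least 1.5. Log2 CPM used a prior count of 2. LKO and control libraries were compared at 0 h, over 12-96 h (time in the model) and over 24 and 48 h (the 0 h mice giving the spread), HKO and null libraries at 0 h, any time with 0 h, and the genotype difference with that at 0 h. Lengths and coordinates came from GENCODE vM21, and promoters from RefSeq.

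The named genes were the 7 members, genes of the lists discussed and the 5 genes with the highest Pearson r with Txnip and with Pklr, among genes of at least 1 CPM. The members and lists were chosen with earlier results of these data known. Txnip is therefore described without a test in every fit that holds the 24 and 48 h pools. A single listed gene is not reported here and enters no count or median of its list. Alternatives were DESeq2 1.42.0, other scalings, filters and models, leaving out libraries and, chosen after seeing the data, the sum of both stranded columns, which adds reads shared by overlapping genes. Nothing gives same-numbered mice a shared litter or day, and the spread between pools is not known. The scripts were tested on simulated data. Counting error sets the limit of 3 reads per library.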

Additional observations from a re-analysis of the deposited data

Results flagged for a closer look

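Txnip moved in opposite directions from 0 h in the 2 genotypes at 24 and 48 h, up in both control pools and down in both LKO pools. The mean log2 change from 0 h was lower in LKO by -2.40 on the scale of LKO minus control, and this difference was not tested, since the gene was chosen for it.

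Of 14 groups of 4 mice examined (7 members in control and LKO mice at 0 h), 1 held a mouse that stood apart from the others. Txnip was at 175 CPM in LKO mouse 1, against 206 to 210.3 CPM in the other 3. Chance would mark about 1 in 20 such groups.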

How the results depend on the processing

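The number of members called was 0 in every alternative for LKO against control at 0 h, HKO against null at 0 h and the change of the genotype difference. Over 12-96 h it was 2 (Mlxipl and Pklr) with DESeq2 and 2 with no filter beyond 1 count, and over 24 and 48 h it was 1 (Mlxipl) with DESeq2, in place of 0. For any time against 0 h the count of 5 did not hold in all fits with fewer libraries. The counts of those fits are left out because they can take in Txnip. Txnip at 24 h kept ratios of -2.28 to -2.20, and at 48 h library size alone gave -2.41 in place of -2.27. That scaling moved the median log2 ratio of all genes to 0.12, 0.08, -0.14, 0.09 and 0.22 from 12 to 96 h.

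Values near 0 changed sign. With library size alone Arrdc4 was at 0.12 and Mlxipl at 0.11 for LKO at 0 h, Pklr at 0.066 for HKO, and Arrdc4 at 0.084 over 12-96 h, where it was at 0.0021 without the filter. Leaving out 1 library or time point gave ranges of -0.19 to 0.13 for Arrdc4 and -0.13 to 0.079 for Mlxipl in LKO at 0 h, -0.21 to 0.23 for Arrdc4 and -0.24 to 0.13 for Pklr in HKO, and -0.22 to 0.19 for Arrdc4 over 12-96 h. Over 24 and 48 h, Khk ranged from -0.20 without the 48 h pools to 0.83 without the 24 h pools, and Slc2a2 from -0.073 to 1.37.

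The replicate block, which takes same-numbered mice as a pair, changed no call of a member. It gave Arrdc4 in HKO -5.90e-04 and moved the calls over all genes in HKO from 119 to 263. Deviations of same-numbered mice correlated at -0.35, -0.16, 0.08 and 0.20 in the LKO cohort and at 0.20, -0.03 and 0.10 in the HKO cohort, so the numbers were not taken to mark pairs. Across all alternatives the calls over all genes ranged from 0 (time left out of the model) to 595 (DESeq2) over 12-96 h, from 2 (without the 48 h pools) to 374 (DESeq2) over 24 and 48 h, from 29 (all 24 libraries in 1 fit) to 324 (DESeq2) in HKO, and from 1113 (LKO libraries alone) to 7218 (DESeq2) for any time against 0 h. With 1 pool per genotype and time, a single time point has no replicate.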
